A study of Mus musculus with 8 samples.

Results

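MicroRNAs with a number of 1000 or more were examined as a class in the small RNA profiles of mouse macrophages. Names are numbered in the order in which sequences entered the miRNA registry, so high numbers are mostly late entries from deep sequencing, many of them known only in rodents. A row belonged to the class if the number after "mmu-miR-" (mature miRNA rows, in CPM) or "Mir" (hairpin gene rows, in RPKM) was 1000 or more. The rule took 147 of 452 rows of the CPM table (32.5%) and 48 of 371 rows of the RPKM table (12.9%), and 3 hairpin rows stood outside both the class and the comparison set. Of these, 2 have names that begin with mmu-mir-, which the rule does not match, and 1 was an exception to the rule and is not analysed here. No measured value entered the rule. At the boundary, miR-935 had 0, 8.89, 2.83 and 5.89 CPM and stayed outside, while miR-1191a, with 3.11, 1.78, 0 and 11.8 CPM, was the first row inside. Among hairpins the neighbours were Mir879, at 6.18 to 57.1 RPKM, and Mir1190, at 0.381 to 1.28 RPKM.

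The cells were bone marrow-derived macrophages, cultured for 3 days with M-CSF from CMG14-12 cell supernatant (equivalent to 20 ng/ml), from mice of a mixed C57BL/6 and 129 background that was over 90% C57BL/6. The 4 groups were unstimulated wild type, wild type with TNF for 24 hours, unstimulated RBP-J knockout and RBP-J knockout with TNF for 24 hours, with 2 libraries each. The knockout genotype was Rbpjf/f; LysM Cre, in which Cre comes from a promoter active in myeloid cells, so recombination need not be complete in every cell. The labels give no age or sex for the animals. RBP-J is the transcription factor that Notch receptors use to reach their target genes, and TNF is an inflammatory cytokine. The series asked which miRNAs TNF changes in macrophages and which of them depend on RBP-J. Only miRNAs were measured, so loss of Rbpj could not be checked here.

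A miRNA is usually cut from a hairpin by Drosha and then Dicer, and pairs with target messages mainly through its seed, bases 2 to 8 from its 5′ end. Not all hairpins take this route. A mirtron is a short intron that splicing itself releases as a hairpin, and some small nucleolar RNAs (snoRNAs) and small Cajal body RNAs (scaRNAs), which guide chemical changes on other RNAs, are also cut into miRNA-sized pieces. Repeats such as the B2 element carry copies of one sequence at many places in the mouse genome. For these reasons late entries hold a mixture of origins.

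RefSeq (GRCm38.p6) held a mature sequence for 126 of the 147 rows of the CPM table. Those below carry the results that follow, with the seed in capitals. The first 3 share a run of bases, and the next pair share another:
miR-3473a: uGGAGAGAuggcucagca
miR-3473b: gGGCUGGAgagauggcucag
miR-3473e: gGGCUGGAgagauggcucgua
miR-3968: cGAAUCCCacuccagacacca
miR-5100: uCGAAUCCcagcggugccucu
miR-1843a-5p: uAUGGAGGucucugucugacu
miR-1843b-5p: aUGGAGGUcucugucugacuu
miR-1981-5p: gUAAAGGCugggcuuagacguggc
miR-1981-3p: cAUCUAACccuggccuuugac
miR-1198-5p: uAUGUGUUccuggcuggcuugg
miR-1839-5p: aAGGUAGAuagaacaggucuug
miR-7688-5p: uAGCUGGGcaugaucugaugagc
miR-3535: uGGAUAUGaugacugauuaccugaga
miR-2137: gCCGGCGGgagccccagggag
miR-1199-5p: uCUGAGUCccggucgcgcgg
miR-1930-5p: aCCUCCAUaguaccugcagcgu
miR-1945: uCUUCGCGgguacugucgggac

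The longest run common to miR-3473a, miR-3473b and miR-3473e is UGGAGAGAUGGCUC. Read on the miRNA strand, it occurs in 3 of 126 matched class rows (2.38%) and in 0 of 255 matched rows numbered below 1000. This run is also part of the consensus of the B2 repeat, which is background knowledge and was not mapped here. CGAAUCCCA, the longest run common to miR-3968 and miR-5100, occurs in 2 of 126 class rows (1.59%), and in 0 of the 255. miR-3473b and miR-3473e were the sole pair of class rows with 1 seed, GGCUGGA. Class seeds were also met below 1000 in 2 cases, CAAAGCA in miR-6240 and miR-330-3p and CACUGAG in miR-3473d and miR-674-5p. miR-1843a-5p and miR-1843b-5p share a run of 20 bases but start 1 base apart, which gives them different seeds. A read shorter than such a run cannot be assigned to a single one of these rows, so their separate values are uncertain.

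As sequences, class rows differed from low-numbered rows. Their median GC content was 57.1%, against 47.8% for rows numbered below 1000. A length of 21 to 23 bases, the usual product of Dicer, was found in 97 of 126 class rows (77.0%) and in 235 of 255 others (92.2%). The first base was U in 42.1% of class rows and 38.4% of the others, but in 33.3% and 49.3% of those with a mean of at least 50 CPM. In that more abundant subset, 10 of 18 class rows (55.6%) and 91.8% of the others had 21 to 23 bases. These are properties of the listed sequences, and no test was made of them.

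In the genome (GENCODE release M21, GRCm38), class rows of the CPM table came from 128 located hairpins. Of these, 61 lay in an intron of a gene on the same strand, 31 overlapped an exon, 28 had no host gene and 8 lay inside an annotated snoRNA or scaRNA gene. miR-1981-5p was at chr1:184822465-184822488 on the minus strand, in a hairpin whose ends were 0 bases from those of an intron of Marc2, a mitochondrial reductase gene. That is the layout of a mirtron. miR-1198-5p was at chrX:7807142-7807163 on the plus strand, in an intron of Gripap1. miR-3968 was at chr11:115447969-115447989 on the minus strand, opposite an exon of Trim80. miR-2137 was at chrX:72992113-72992133 on the plus strand, in an intron of Zfp185. miR-1199-5p lay at chr8:84011594-84011613 on the minus strand, over an exon of 2210011C24Rik. The miR-1843b rows lay in Scarna3a, miR-1843a in Scarna3b and miR-5121 in Snord33. miR-1306 overlapped an exon of Dgcr8, whose product is the partner of Drosha.

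The 2 tables named largely different members. Arms summed, the class had 131 miRNAs by CPM and 48 by RPKM, and 22 were in both, 16.8% of the first list and 45.8% of the second. Below 1000, 176 miRNAs were in both, 88.9% and 58.9% of the 2 lists. Numbers of 2000 or more made up 109 of the 147 class rows of the CPM table, and Mir2137 was the single such row of the RPKM table. Of the CPM rows, 38 were numbered below 2000, 33 had a number in the 3000s, 15 in the 5000s and 60 at 6000 or above.

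Class members were mostly scarce. The median row of the class had a mean of 6.27 CPM over the 4 libraries, against 47.5 CPM below 1000. The medians by hairpin were 5.69 RPKM for the class and 55.7 RPKM below 1000. CPM libraries held 321327 to 848652 reads, so 1 read was worth 1.18 to 3.11 CPM. Of the 147 rows, 72 (49.0%) never exceeded 5 reads in a library, compared with 59 of 305 rows below 1000 (19.3%). Reads were above 0 in all 4 libraries for 77 class rows (52.4%) and for 246 of the others (80.7%). Across the 22 shared members, levels in the 2 tables correlated at r = 0.69 on the log2 scale (Spearman 0.66), and across the 176 shared low-numbered miRNAs at r = 0.83 (Spearman 0.85). These correlations are across miRNAs of the same libraries and are descriptions.

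**Figure D1:**
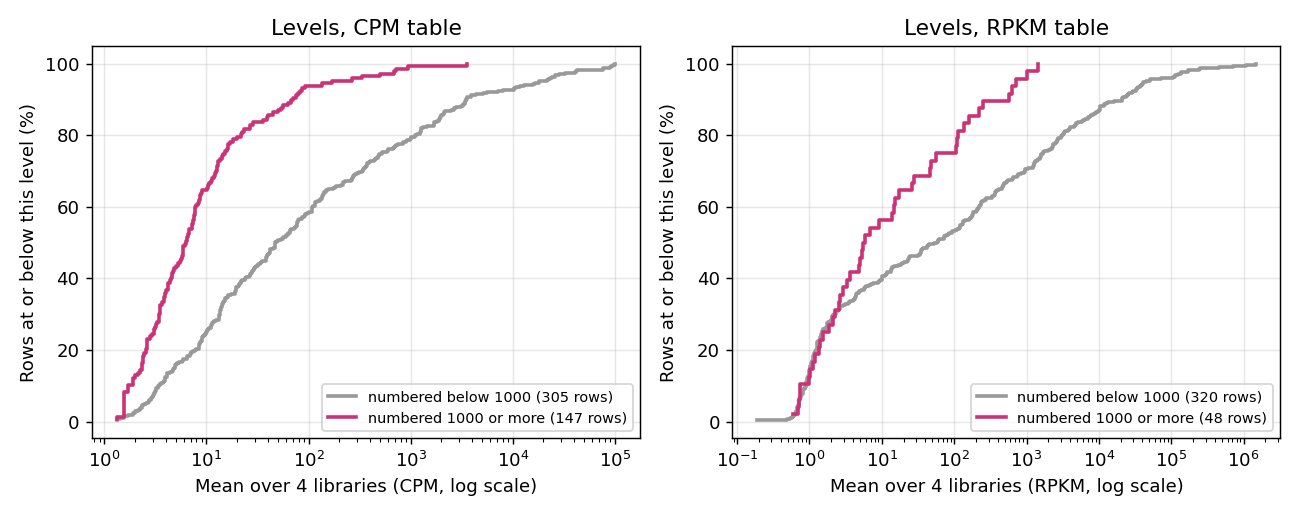
Cumulative share of rows (%, vertical) at or below a mean level over 4 libraries (horizontal, log scale) in the CPM table (left) and the RPKM table (right), for rows numbered 1000 or more and below 1000. The class curve rises earlier, with a median of 6.27 against 47.5 CPM and of 5.69 against 55.7 RPKM.

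A few members held most of the class signal. miR-5099, on chromosome 12 outside any annotated host gene, had 3965 CPM in unstimulated wild type, 4921 with TNF, 2486 in unstimulated knockout and 2886 in knockout with TNF. Both knockout libraries were lower than both wild-type libraries, and TNF moved the level by 1.24-fold and 1.16-fold. These differences rest on 1 library per group, as miR-5099 is not a row of the RPKM table. miR-5099 alone gave 39.1% of the summed CPM of the class. The 4 most abundant rows gave 64.9%, and the 10 most abundant 81.4%.

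miR-1198-5p had 952, 782, 1422 and 653 CPM in the same order. miR-3968 had 965, 615, 779 and 419 CPM, lower with TNF in both genotypes. Its log2 ratios were -0.65 in wild type and -0.89 in the knockout. The medians over all CPM rows with a mean of at least 5 were -0.55 and -0.41. miR-1839-5p, a miRNA cut from a scaRNA, had 277, 482, 705 and 538 CPM, lowest in unstimulated wild type. miR-3057-5p, over an exon of Apba3, likewise was lowest there, with 237, 318, 484 and 298 CPM. miR-1943-5p, the lowest of the 10 most abundant rows, had 146, 67.6, 82.1 and 70.7 CPM. The other 137 rows outside the 10 most abundant had means of 1.33 to 87.3 CPM.

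In the RPKM table Mir1249 led with 1520, 1701, 1075 and 1500 RPKM, and gave 24.8% of the class signal. It has a human counterpart of the same number. Mir1198 had 1094, 1222, 969 and 841 RPKM. Mir1964, in an intron of the zinc finger gene Zfp84, had 478, 812, 520 and 744 RPKM, higher with TNF in both genotypes. The CPM table did not show this rise. There miR-1964-3p had 62.2, 62.2, 124.6 and 100 CPM, equal in wild type and lower with TNF in the knockout. Mir1983 had 492, 457, 846 and 503 RPKM, with the unstimulated knockout apart from the other 3. By CPM the pattern differed, and miR-1983 was highest in wild type with TNF. It had 18.7, 80.0, 22.65 and 35.35 CPM there, on 6, 45, 8 and 30 reads. Mir1306 had 247, 316, 176 and 249 RPKM, and Mir1948 had 164, 380, 153 and 185 RPKM. Mir1956 ranged from 111 to 154 RPKM, Mir1934 from 102 to 135 RPKM and Mir1933 from 83.9 to 125 RPKM. The 5 most abundant rows gave 75.5% of the class signal.

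**Figure D2:**
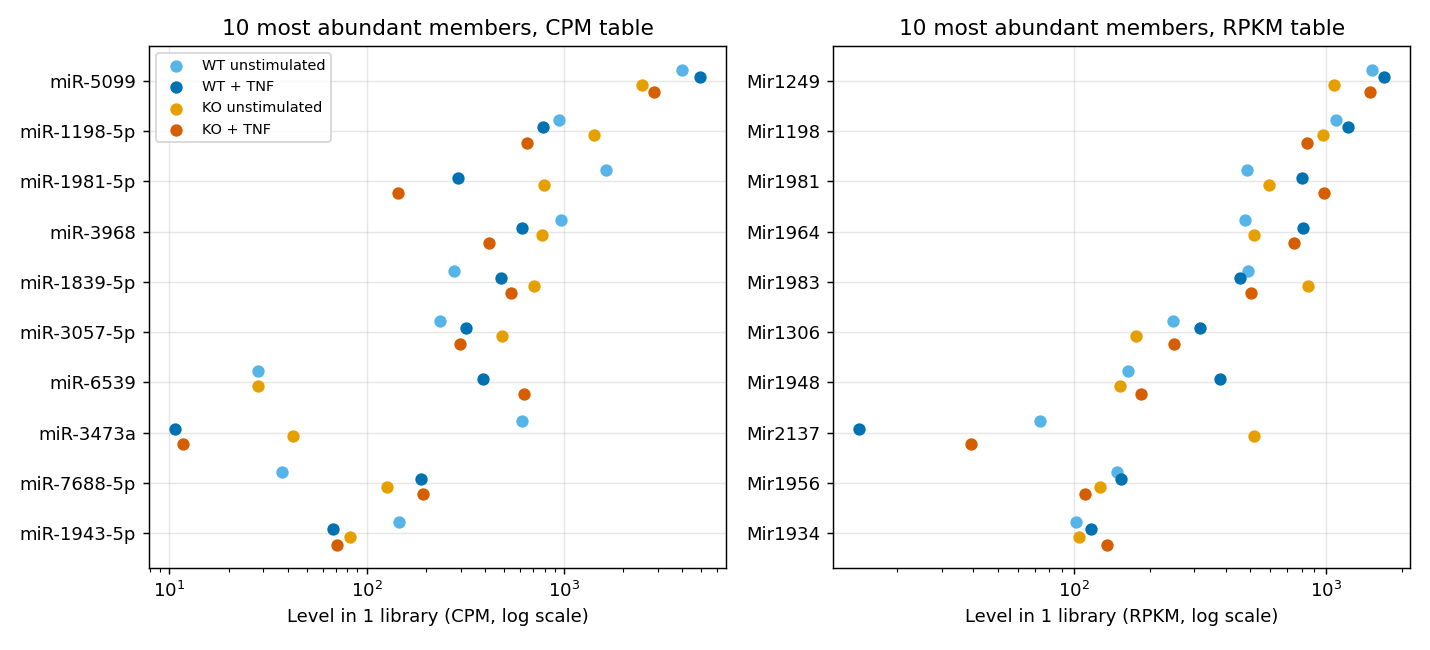
Level in each library (horizontal, CPM or RPKM, log scale) of the 10 class members with the highest mean in each table; each point is 1 library, coloured by group. miR-5099 lies at 2486 to 4921 CPM, miR-6539 is high in both TNF libraries, and Mir2137 spans 14.1 to 518 RPKM.

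Of the reads of listed miRNAs, the class took 1.16% in unstimulated wild type (Wilson 95% limits 1.12 and 1.20), 0.932% in wild type with TNF (0.907 to 0.957), 0.856% in unstimulated knockout (0.826 to 0.887) and 0.703% in knockout with TNF (0.685 to 0.721). Intervals cover counting error only, with 1 library a group. Thus the share was highest in unstimulated wild type and lower with TNF in both genotypes. With the class taken from number 2000 the knockout turned, at 0.481% without and 0.512% with TNF. Without miR-5099 the shares were 0.764%, 0.440%, 0.608% and 0.414%, and the TNF libraries remained the lower of each pair. Without the 4 most abundant members they were 0.408%, 0.271%, 0.308% and 0.293%, and wild type with TNF became the lowest.

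By RPKM reads the class took 0.106% (0.104 to 0.108), 0.0986% (0.0969 to 0.1004), 0.120% (0.118 to 0.123) and 0.107% (0.104 to 0.109) of listed miRNA reads, over the 46 rows with a gene length. Here the unstimulated knockout was highest, and TNF libraries again were lower within each genotype. The order of the genotypes was the reverse of that in the CPM table. A share is set by all other miRNAs of a library too, and fewer cells of a type cannot be told apart from less RNA per cell in such bulk samples.

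**Figure D3:**
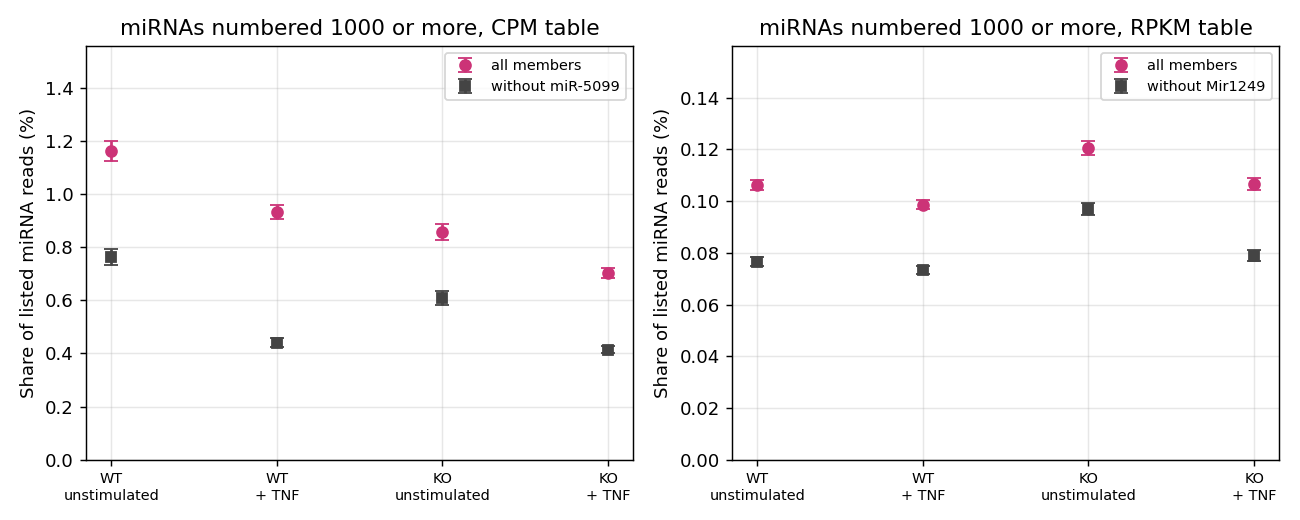
Share of listed miRNA reads (%, vertical) taken by miRNAs numbered 1000 or more in each library of the CPM table (left) and the RPKM table (right), with all members (circles) and without the most abundant member (squares). Bars are 95% Wilson intervals for counting error; TNF libraries lie below unstimulated ones of the same genotype, from 1.16% to 0.932% in wild type of the CPM table.

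The CPM library of unstimulated wild type stood apart in scarce rows. Of 147 class rows, 72 (49.0%) had their highest CPM there, as did 143 of 305 low-numbered rows (46.9%). Reads were found in that library alone for 15 class rows, against 2, 1 and 0 rows for the other libraries, and for 3 low-numbered rows. The table lists rows above 5 CPM in at least 1 library, which takes 2 reads in either unstimulated library, 3 in wild type with TNF and 5 in knockout with TNF. Thinned to 321327 reads each, the libraries would show 120, 97.5, 113 and 98.6 class rows. Some marker miRNAs of other tissues were also higher in it. miR-150, of lymphocytes, had 37.4 CPM there and 1.18 to 3.56 elsewhere, liver miR-122 had 34.2 against 0 to 3.56, and 3 epithelial miRNAs summed to 109 against 7.07 to 19.8. Endothelial miR-126a had 24.9 against 8.89 to 11.3, and 2 stromal miRNAs summed to 90.2 against 21.3 to 70.8. The neuronal marker miR-9 went the other way, with 0 there and 1.78 to 5.66 CPM elsewhere. Their part in the class values was not tested. The 5 myeloid markers summed to 91415 to 117407 CPM in the 4 libraries, and the erythroid and muscle markers were not listed. In the RPKM table, 4 stromal markers summed to 3583 to 53208 RPKM, and miR-150 ranged from 130 to 354 RPKM.

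A mean of 5 CPM or more was met by 84 class rows. With TNF in wild type the median of their log2 ratios, taken on value + 1, was -0.997, against -0.42 for low-numbered rows. Set against the median of all rows, 16 of the 84 were at least 2-fold higher (19.0%, background 21.4%) and 29 at least 2-fold lower (34.5%, background 27%). In the knockout the medians with TNF were -0.36 for the class and -0.46 below 1000, with 20 rows higher (23.8%, background 17.3%) and 14 lower (16.7%, background 17.6%). Without stimulation, the knockout against wild type gave medians of -0.85 and -0.13, with 16 higher (background 16.1%) and 29 lower (34.5%, background 24.3%). This contrast and the first share the unstimulated wild-type library described above. With TNF, the knockout contrast had medians of 0 and -0.10, with 15 higher (17.9%, background 11.1%) and 12 lower (14.3%, background 13.5%). Each ratio sets 1 library against 1 and has no replicate check.

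The same minimum in RPKM was passed by 27 class rows. With TNF in wild type their median was 0.20, against 0.47 below 1000, with 0 rows 2-fold higher (background 7.83%) and 3 lower (11.1%, background 5.22%). In the knockout it was 0.52 against 0.27, with 5 higher (18.5%, background 11.7%) and 4 lower (14.8%, background 12.2%). The unstimulated knockout contrast had medians of -0.20 and -0.06, with 2 higher (background 5.22%) and 4 lower (background 13.5%). With TNF it had 0.02 and -0.32, with 3 higher (background 5.22%) and 1 lower (background 12.6%). The class median with TNF was thus negative by CPM and positive by RPKM, in both genotypes. The median of rows numbered below 1000 had the same signs, so this difference between the tables is not particular to the class.

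**Figure D4:**
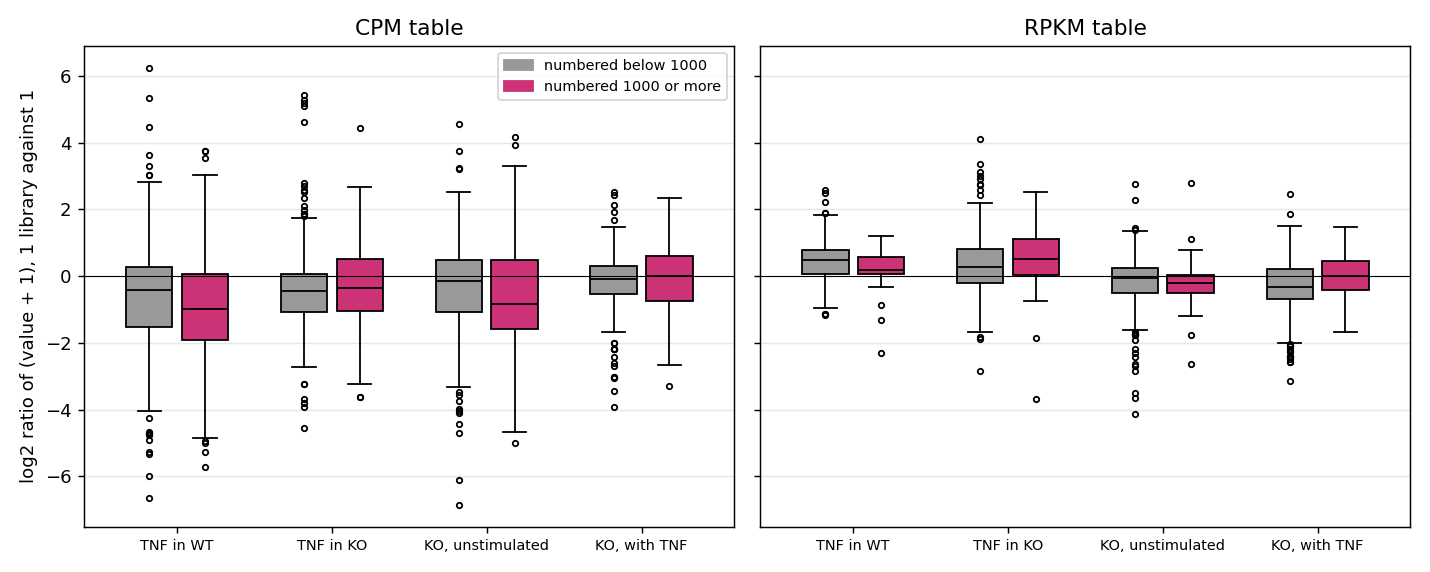
log2 ratio of (value + 1) between 2 libraries of 1 table (vertical) for rows with a mean of at least 5, in the CPM table (left) and the RPKM table (right), for 4 contrasts. Boxes span the quartiles with the median as a line, whiskers reach 1.5 times the box, and points are rows beyond; the class median for TNF in wild type is -0.997 on the left and 0.20 on the right.

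Among single members of the CPM table, miR-6539 was higher with TNF in both genotypes. It lies in an intron of Dock5, a gene for an activator of Rac. It had 28.0 CPM (9 reads) in unstimulated wild type and 391 CPM (220 reads) with TNF, and 28.3 CPM (10 reads) and 628 CPM (533 reads) in the knockout. Both TNF libraries were above both unstimulated ones, by 14.0-fold and 22.2-fold. It is not a row of the RPKM table, so this pattern rests on 1 library per group. miR-7688-5p had 37.4, 189, 127 and 194 CPM, lowest in unstimulated wild type. miR-7213-5p, in an intron of the growth factor gene Pdgfb, had 12.5, 19.6, 5.66 and 27.1 CPM. It was higher in each TNF library than in its control, but on only 4, 11, 2 and 23 reads. miR-3060-3p had 3.11, 21.3, 39.6 and 22.4 CPM on 1 to 19 reads, and miR-6240 had 34.2, 7.11, 2.83 and 23.6 CPM on 1 to 20 reads.

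The repeat-like miR-3473a ran the other way, with 613, 10.7, 42.5 and 11.8 CPM (197, 6, 15 and 10 reads). It was lower with TNF by 57.5-fold in wild type and by 3.61-fold in the knockout. miR-3473b had 84.0, 1.78, 11.3 and 10.6 CPM (27, 1, 4 and 9 reads). miR-3473e had 21.8, 0, 11.3 and 2.36 CPM (7, 0, 4 and 2 reads). The rows that share UGGAGAGAUGGCUC were thus all highest in unstimulated wild type, as were 49.0% of class rows and 46.9% of low-numbered rows. miR-3473d (10.7 to 28.3 CPM) and miR-3473g (37.7 to 68.0 CPM), which lack the run, varied less between libraries. A link between the run and the levels was not tested. The 5 miR-3473 rows summed to 800, 78.2, 161 and 84.8 CPM. miR-3535 had 243, 37.4, 8.50 and 25.9 CPM and was 28.6-fold lower in the unstimulated knockout than in wild type. miR-7062-5p had 152, 12.4, 19.8 and 16.5 CPM. For miR-3473a, miR-3473b, miR-3535 and miR-7062-5p the unstimulated wild-type library alone was high.

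The mirtron miR-1981 gave opposite changes in the 2 tables. miR-1981-5p had 1637 CPM without and 292 CPM with TNF in wild type, and 793 and 145 CPM in the knockout, 5.61-fold and 5.47-fold lower. miR-1981-3p had 109, 69.4, 93.5 and 57.7 CPM, 1.57-fold and 1.62-fold lower. As a result the 5p arm made up 93.8% of the reads of both arms in unstimulated wild type (exact 95% interval 91.4 to 95.6), 80.8% with TNF (74.7 to 86.0), 89.5% in unstimulated knockout (85.5 to 92.6) and 71.5% in knockout with TNF (64.1 to 78.1). The TNF intervals lie below the unstimulated interval of the same genotype. Intervals of arm shares, here and below, cover counting error only, with 1 library a group, so variation between libraries was not tested. The hairpin gene Mir1981 had 485, 805, 595 and 977 RPKM on 727 to 1276 reads, 1.66-fold and 1.64-fold higher with TNF. In limma the TNF effect over both tables was -0.74 ± 0.64 (log2 fold change ± SE, n = 2 libraries a group).

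Both arms were listed for 16 hairpins of the class, and 5 of these had at least 20 reads over both arms in every library, among them miR-1981. For miR-1843b the 5p arm took 43.5% to 54.9% of 46 to 82 reads, and for miR-1843a 92.1% to 96.9% of 22 to 38 reads. miR-1198 was almost all 5p, with 0 to 3 reads of the 3p arm beside 306 to 554 of the 5p arm. For miR-1839 the 5p share was 93.7% (86.8 to 97.6) in unstimulated wild type, 98.9% (96.8 to 99.8) with TNF, 99.2% (97.2 to 99.9) in unstimulated knockout and 100% (99.2 to 100) in knockout with TNF. miR-3068, inside a snoRNA gene and an intron of Alkbh1, had 40 reads of the 5p and 47 of the 3p arm in unstimulated wild type, a share of 46.0% (35.2 to 57.0). Its 5p share was 13.5% (4.54 to 28.8) with TNF, 17.6% (3.80 to 43.4) in unstimulated knockout and 0% with TNF (0 to 7.40), where 48 reads were 3p. The other 10 pairs had at most 15 reads in any library, too few to follow a balance. The 13 rows inside snoRNA or scaRNA genes summed to 865, 774, 1053 and 746 CPM. The largest of them, miR-1839-5p, was lowest in unstimulated wild type, at 277 CPM against 482, 705 and 538 CPM. The sum therefore does not describe how the other rows moved.

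A short list of miRNAs with a human counterpart of the same number, which does not hold all such members, was also followed. By CPM, 6 rows of that list, of miR-1249, miR-1306, miR-3074 and miR-3065, summed to 149, 35.6, 65.1 and 58.9 CPM. By RPKM, 5 rows of the list, Mir1249, Mir1306, Mir1247, Mir1298 and Mir1193, summed to 1829, 2114, 1261 and 1779 RPKM. miR-3074 and miR-3065 come from the strand opposite miR-24 and miR-338, and their 3 rows summed to 5.66 to 28.0 CPM. Mir1193, of the imprinted Dlk1-Dio3 cluster, was at 1 or 2 reads. Mir1247, over an exon of Dio3os near that cluster, had 61.8 and 94.6 RPKM in wild type but 9.01 and 28.7 RPKM in the knockout. It was 6.86-fold lower without and 3.29-fold lower with TNF, and both knockout libraries lay below both wild-type ones. The sum of 4 stromal markers ran the same way in these libraries, with 17151 and 53208 RPKM in wild type and 3583 and 11761 RPKM in the knockout, and its part in the Mir1247 values was not tested. Mir1247 is not a row of the CPM table.

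To test changes across both tables, limma was fitted to the 185 miRNAs listed in both with a mean of at least 5, of which 19 were class members. No member was called at an adjusted p under 0.05 in any of the 7 comparisons. Of all 185, the share called was 0% in 6 comparisons and 0.541% (1 miRNA, outside the class) for the knockout effect averaged over treatments. At an unadjusted p under 0.05, the averaged TNF effect had 4 of the 19 members, 2 higher and 2 lower, beside 14.1% of all 185. TNF in wild type had 2 members, both lower (background 6.49%), and TNF in the knockout had 2, both higher (background 9.73%). The unstimulated knockout effect had 0 members (background 2.7%), the knockout effect with TNF 0 (background 2.16%), the averaged knockout effect 0 (background 7.57%) and the interaction 0 (background 0.541%). On recovered reads edgeR called 0 members in every comparison, and DESeq2 called 1, in the averaged TNF effect (background 2.7%). The median member had an SE of 0.84 in a simple contrast, against 0.72 for low-numbered miRNAs. Without the RPKM library of unstimulated wild type, whose group is then set by the CPM library alone, limma called 4 members for TNF in wild type (miR-1199, miR-1931, miR-1934 and miR-2137) beside 9.19% of all 185, and 3 for the averaged TNF effect (miR-1199, miR-1945 and miR-2137) beside 14.1%. Without the RPKM library of wild type with TNF it called miR-1199 in both, beside 3.78% and 4.86% of all. Without that of knockout with TNF it called miR-1199 for the averaged effect, beside 3.78%. Fitted log2 fold changes of the 19 members with TNF in wild type ran from -3.02 to 1.82 with a median of -0.29, beside -0.08 over all tested. In the knockout they ran from -1.99 to 2.19 with a median of 0.13, beside -0.10. Medians for the knockout effect were -0.34 without TNF and 0.01 with TNF, beside -0.23 and -0.13.

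miR-2137, a GC-rich miRNA, had the lowest p of the members for the averaged TNF effect. Mir2137 had 73.3 RPKM in unstimulated wild type and 14.1 RPKM with TNF, and 518 and 39.1 RPKM in the knockout, on 105, 18, 509 and 35 reads. In the CPM table miR-2137 had 12.5, 0, 2.83 and 2.36 CPM, on 4, 0, 1 and 2 reads. Both TNF libraries were below both unstimulated ones in the RPKM table, while in the CPM table the counts were too low to separate the groups. The averaged TNF effect was -2.48 ± 0.77 (limma adjusted p = 0.197, n = 2 libraries a group), and DESeq2 gave -3.33 (adjusted p = 0.0152). With 1 library left out in turn, the averaged effect ran from -3.42 without the CPM library to -1.54 without the RPKM library of unstimulated knockout, and the effect in the knockout alone, -1.94, ran from -3.82 to -0.06 under the same omissions. In wild type alone limma gave -3.02 ± 1.09 (adjusted p = 0.648). Its knockout levels were above wild type in the RPKM table by 7.07-fold without and 2.77-fold with TNF. The CPM table gave log2 ratios of -1.81 and 1.75 for the same contrasts, on at most 4 reads.

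miR-1199 was also lower with TNF. miR-1199-5p had 37.4, 0, 11.3 and 0 CPM (12, 0, 4 and 0 reads), and a count of 0 allows up to 3 reads. Mir1199 had 86.7, 69.1, 38.4 and 29.7 RPKM. Both tables put each TNF library below its control, by 1.25-fold and 1.29-fold in the RPKM table. The averaged TNF effect was -2.39 ± 0.86 (limma adjusted p = 0.291), a value that rests on rows at 0 and so on the pseudocount of 1. Over fits with 1 library left out it ran from -3.27 to -1.51, and the ends left out the RPKM and the CPM library of wild type with TNF. Mir1199 was also 2.26-fold and 2.32-fold lower in the knockout than in wild type in the RPKM table.

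miR-1930 and miR-1945 had higher values with TNF, though not in every case beyond the median miRNA. Mir1930 had 12.6, 18.5, 12.0 and 27.2 RPKM and miR-1930-5p had 0, 1.78, 0 and 5.89 CPM, with an averaged effect of 1.47 ± 0.56 (limma adjusted p = 0.320). Mir1945 had 14.2, 18.6, 3.44 and 24.6 RPKM and miR-1945 had 0, 3.56, 2.83 and 13.0 CPM, with an averaged effect of 1.74 ± 0.69 (limma adjusted p = 0.320). Each TNF library was above its control in both tables for both miRNAs, on 0 to 11 reads in the CPM table and 4 to 31 in the RPKM table. In wild type the RPKM log2 ratios were 0.52 for Mir1930 and 0.37 for Mir1945, beside a median of 0.37 over all tested miRNAs. Mir1945 thus rose no more than the median there. In the knockout they were 1.12 and 2.52, beside 0.30. The CPM medians were -0.61 in wild type and -0.41 in the knockout. For miR-1945 the fitted effect in wild type, 1.28, turned to -0.15 without the CPM library of unstimulated wild type, where the miRNA is at 0.

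Few members moved the same way by 2-fold in both tables, relative to the median of all tested. With TNF in wild type 1 of 19 was lower, miR-2137 (background 3.24%), and 0 were higher (background 2.16%). In the knockout 2 were higher with TNF, miR-1945 and miR-1960 (background 7.57%), and 0 lower (background 1.08%). The unstimulated knockout contrast had 1 lower, miR-1199 (background 3.78%), and 0 higher (background 0%). With TNF the knockout contrast had 1 higher, miR-2137 (background 1.62%), and 0 lower (background 3.78%). Signs relative to that median matched between tables for 10, 13, 11 and 12 of the 19 members, and for 48.8% to 60.8% of the 166 low-numbered miRNAs. The remaining 3 members listed in both tables, miR-1191a, miR-1932 and miR-1968, had means under 5 over the 8 libraries and were not tested.

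**Figure D5:**
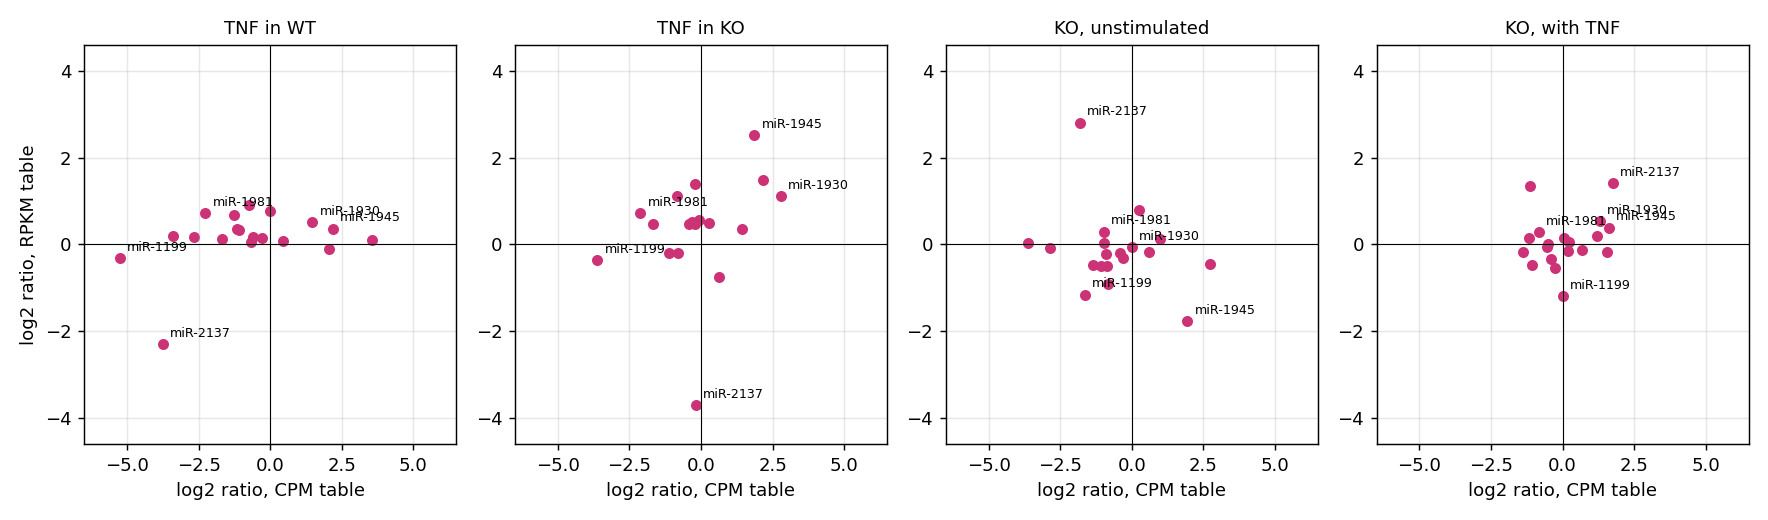
log2 ratio of (value + 1) in the CPM table (horizontal) against that in the RPKM table (vertical) for the 19 tested members in 4 contrasts; each point is 1 miRNA. Points spread wider along the CPM axis, and for TNF miR-2137 and miR-1199 lie below 0 in both tables while miR-1981 is negative in the CPM table alone.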

How the data were processed

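The labels give 8 small RNA libraries (TruSeq small RNA kit), and columns of the deposited tables name a group but no replicate. The authors deposited CPM values of mature miRNAs in 1 table, and in the other values without a unit name, deposited per hairpin gene and read here as RPKM because, times gene length (GENCODE M21, 363 of 371 identifiers), 94.9% to 95.8% of low values were whole reads at a tolerance of 0.1. For CPM all low values were (100%), and its reads were recovered from the value of 1 read. The submitters' processing notes name CASAVA 1.8.2. Aligner, counter and genome build are not given in the sources used here.

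RPKM libraries held about 13580509 to 21716184 reads, inferred from the values. The mean over 8 libraries, used as a filter, pools both units, and RPKM values weigh most in it. limma 3.58.1 (R 4.3.3, lmFit, eBayes with a trend) was fitted to log2(value + 1), with the table as a block, over 4 groups and 8 libraries (residual df 3 before moderation). Arms were summed in the CPM table and copies in the RPKM table. The Benjamini-Hochberg threshold was 0.05 in two-sided tests. edgeR 4.0.16 and DESeq2 1.42.0 ran on recovered reads as alternatives. The deviations of same-table libraries from their group means correlated at 0.752 to 0.917, and a change of unit alone would give this. Nothing in the labels ties a replicate to an animal or culture of its own, so the spread behind each p-value may be technical. Adding 1 before the log2 shrinks changes of low rows. Fits were tested on simulated data.

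Members and lists were chosen with earlier results of these data known. Named miRNAs are every member tested, the 10 highest means in each table, in each contrast and table the 3 furthest above and below with a mean of at least 5 and 10 reads in 1 library, members of the origin lists and of shared seeds, and others chosen after their values were seen. For TNF in wild type these extremes also held miR-1934-3p, Mir1929 and Mir1955. For the other contrasts they also held miR-1947-5p, miR-6960-5p, miR-8114, miR-1194, Mir1966 and Mir1982. Among tested members, miR-1943, miR-1955 and miR-1969 had averaged TNF effects of 0.10, 0.11 and -0.38 in limma (log2 fold change). Of the 3 rows outside the rule, 1 is described under flagged results.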

Additional observations from a re-analysis of the deposited data

Results flagged for a closer look

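One hairpin numbered above 1000 is written as mmu-mir-1907 in the RPKM table and so fell outside the rule and every comparison. It had 5.17 RPKM in wild type with TNF and 7.37 RPKM in knockout with TNF, above the 1.54 RPKM of unstimulated wild type and the 0.746 RPKM of the unstimulated knockout. It was picked out because a row not used elsewhere exceeded its control libraries in both genotypes. The difference was not tested, with 1 library a group. Values of this size stand for few reads: Mir1894, a class hairpin at 3.32 to 8.19 RPKM, had 4 to 9 reads a library.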

How the results depend on the processing

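For limma calls over all miRNAs tested, leaving out each library in turn gave 0 to 17 for TNF in wild type, 0 to 7 for TNF in the knockout, 0 to 6 for the unstimulated knockout effect, 0 to 2 for the interaction, 0 to 26 for the averaged TNF effect and 0 to 5 for the averaged knockout effect. Members called were 0 to 4 for TNF in wild type and 0 to 3 for the averaged TNF effect, and 0 elsewhere. With 1 library left in a group, that library is assumed to vary like the others. DESeq2 called 4 miRNAs for TNF in the knockout, 5 for the averaged TNF effect (1 a member) and 2 for the averaged knockout effect. Median-of-ratios scaling called 1 for the averaged TNF effect. For the averaged knockout effect, the fit with no replicate block and the fit without a trend called 0, against 1, and the block changed no other call. Samples share a table, not a stated animal. For miR-1945, TNF in wild type ran from -0.15 to 2.71 when libraries were left out, reversed where the CPM library of unstimulated wild type was absent.

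The class share moved with its definition. From 2000 upward it was 0.775%, 0.714%, 0.481% and 0.512% by CPM reads, higher with TNF in the knockout, and by RPKM reads 0.000967%, 0.000142%, 0.00766% and 0.000485%. Without the most abundant member it was 0.764%, 0.440%, 0.608% and 0.414% by CPM reads, and by RPKM reads 0.0766%, 0.0733%, 0.0968% and 0.0790%. Chosen after seeing the data, leaving out the miR-3473 rows gave 1.08% in unstimulated wild type, and leaving out the 4 most abundant members gave 0.408%, 0.271%, 0.308% and 0.293%. Class medians at a mean of at least 50 were -0.10 for the unstimulated knockout and -0.26 for the knockout with TNF in the CPM table, and -0.17 for the latter in the RPKM table, where no filter gave -0.074. At 1.5-fold, 2, 4, 2 and 2 members moved the same way in both tables for TNF in wild type and knockout and for the knockout without and with TNF, of 22, 31, 21 and 25 miRNAs. The causes of these changes were not tested. Rows of 1 to 5 reads limit what depth can show for nearly all scarce members.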

Other observations

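Members in the RPKM table moved less between libraries than those of the CPM table. The quartiles of the class log2 ratio for TNF in wild type were 0.06 and 0.56 over 27 rows of the RPKM table, and -1.93 and 0.06 over 84 rows of the CPM table. Low-numbered rows had quartiles of 0.05 and 0.78 in the RPKM table and of -1.53 and 0.26 in the CPM table.

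Several late entries of the CPM table lie at intron ends. miR-7091-5p, whose hairpin matches an intron of Dnase1l1 at both ends (0 bases), had 28.0, 26.7, 39.6 and 13.0 CPM. Its hairpin is on the X chromosome. In contrast to miR-1981-5p, its wild-type libraries with and without TNF differed little. In the knockout miR-7091-5p was 3.06-fold lower with TNF, the same direction as miR-1981-5p. Its values rest on 9, 15, 14 and 11 reads. The 6 rows within 5 bases of both intron ends summed to 1780, 405, 963 and 236 CPM, and most of that sum was miR-1981-5p.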
